A study of Mus musculus with 9 samples.

Results

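The phase II conjugation enzymes of the liver attach glucuronic acid, sulfate or glutathione to drugs, hormones, bile acids and reactive metabolites. They were taken from the deposited gene table as every row whose symbol begins with Ugt1 to Ugt3, with Sult and a digit, with Gst and one of the class letters a, k, m, o, p, t or z, or with Mgst and a digit, together with the pseudogene Gstp-ps. This rule found 76 of the 56748 genes in the table: 9 Ugt1, 10 Ugt2, 2 Ugt3, 8 Sult1, 13 Sult2, 6 other Sult, 5 Gsta, 8 Gstm, 4 Gstp, 8 other Gst and 3 Mgst genes. No measured value entered the choice.

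UDP-glucuronosyltransferases (UGTs) sit in the membrane of the endoplasmic reticulum and transfer glucuronic acid from UDP-glucuronic acid. Cytosolic sulfotransferases (SULTs) transfer sulfate from the donor PAPS, and glutathione S-transferases (GSTs) join glutathione to electrophiles in the cytosol or, for the Mgst enzymes, at membranes. Hepatocytes carry most of these enzymes, and in mice several of them differ between male and female liver or respond to the xenobiotic receptors AhR, CAR and PXR and to NRF2, the regulator of the antioxidant response.

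Bulk RNA sequencing was done on liver from C57BL/6J mice (C57BL/6 in the sample labels) in 3 groups of 3 libraries. The DSS group drank 1.8% dextran sulfate sodium, which damages the colon, in 3 cycles that alternated with recovery, and was gavaged daily with 200 µL of sterile water. The Indirubin group had the same DSS cycles and received 1 g/kg/day of indirubin, an insoluble indigoid compound, in the same volume. The Control group is labelled water and also received the 200 µL gavage. Since the series text describes colitis without separating the groups, what Control mice drank is known from this label alone. The labels do not give the sex of the mice, and nothing states that each library is a separate animal, so p-values measure the spread between libraries. In bulk liver RNA, fewer cells of a type and less RNA per cell cannot be told apart.

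Totals lay between 6514863 and 7944684 counts, but mitochondrial transcripts took 71.58 to 91.27% of them, and 569044 to 2132208 counts fell on nuclear genes. The hepatocyte gene Alb was abundant in all 9 libraries, at 4510 to 12800 normalised CPM (counts scaled to a common, composition-corrected library size). Indirubin-2 and Indirubin-3 stood apart from Indirubin-1. The correlation of log2 CPM across genes was 0.801 between these libraries and 0.69 and 0.676 with Indirubin-1, within a range of 0.606 to 0.805 over all pairs. The summed level of 10 pancreatic acinar markers was 656 and 884 normalised CPM in Indirubin-2 and Indirubin-3, 10.2 in Indirubin-1 and between 0 and 17.5 in the other 6 libraries, and Cpa1 and Cela2a, which encode pancreatic enzymes, had counts in Indirubin-2 and Indirubin-3 alone. Counts of members called and the main fold changes that rest on these libraries are given below also without Indirubin-1 or for Indirubin-1 alone.

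The sequence of the Gstp genes is shown because 2 of the members called below, Gstp1 and Gstp-ps, could draw on the same reads. The lines give bases 241 to 360 of the Gstp1 coding sequence, the same bases of Gstp2 and the matching bases of the processed pseudogene Gstp-ps, from GENCODE vM21 transcripts, with the 7 positions that differ in capitals.
Gstp1: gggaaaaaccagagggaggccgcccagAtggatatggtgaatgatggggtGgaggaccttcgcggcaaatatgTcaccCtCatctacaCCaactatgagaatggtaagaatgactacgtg
Gstp2: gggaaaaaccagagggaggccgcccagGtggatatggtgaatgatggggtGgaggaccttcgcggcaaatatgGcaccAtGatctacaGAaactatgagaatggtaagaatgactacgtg
Gstp-ps: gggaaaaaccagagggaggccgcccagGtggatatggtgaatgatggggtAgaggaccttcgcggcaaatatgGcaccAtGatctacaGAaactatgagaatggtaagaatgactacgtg
From base 31 to the end of the coding sequence, 603 bases, Gstp1 differed from Gstp2 at 10 positions and from Gstp-ps at 13, and Gstp2 differed from Gstp-ps at 5. The last 303 of these bases were identical in all of them. Among all words of 50 bases in their transcripts, 33.7% of Gstp1, 54.3% of Gstp2 and 71.1% of Gstp-ps also occurred in another gene, so counts assigned to one of these genes are uncertain and their sum is given beside them.

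The same measure was between 52.1% and 79.8% for the 9 Ugt1 genes, which splice separate first exons to a shared remainder. It was 41.7% for Ugt2b5, mostly shared with Ugt2b38, and 90.5% for Gsta1. It was 0 for Sult1d1, Sult1e1, Ugt2b1, Mgst1, Gsto1 and Gstk1, and 1.7% for Sult2a8.

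RefSeq promoters (GRCm38.p6, 250 bases before to 50 after the annotated start) are printed for members that the comparisons turn on, with matches on either strand in capitals to 4 motifs chosen from textbook knowledge, of which TGANTCAGC was added after the Gstp1 promoter had been read. TGACNNNGC, a core of the antioxidant response element, occurred in 12.39% of 32851 promoters and in those of 4 of the 59 members with a promoter, Gsta3, Gstm5, Gstm7 and Mgst1. TGANTCAGC, where an AP-1 site and an antioxidant response element overlap, occurred in 1.19% of promoters and in those of Gstp1 and Gstp2. TNGCGTG, the core bound by AhR, occurred in 5.07% of promoters and in those of Ugt1a5, Sult1d1 and Gsta2. The HNF1 core occurred in 0.4% of promoters and in those of 8 members, Ugt1a1, Ugt1a9, Ugt1a10, Sult1d1 and Sult2a3 to Sult2a6.
Gstp1, chr19:4037863-4038162 on the minus strand: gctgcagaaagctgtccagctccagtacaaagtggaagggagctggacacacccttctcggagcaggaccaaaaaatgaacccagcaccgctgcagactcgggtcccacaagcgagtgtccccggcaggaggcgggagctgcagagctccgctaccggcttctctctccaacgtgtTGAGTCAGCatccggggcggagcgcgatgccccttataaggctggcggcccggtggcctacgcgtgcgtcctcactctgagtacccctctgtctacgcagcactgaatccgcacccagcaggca
Sult1d1, chr5:87568957-87569256 on the minus strand: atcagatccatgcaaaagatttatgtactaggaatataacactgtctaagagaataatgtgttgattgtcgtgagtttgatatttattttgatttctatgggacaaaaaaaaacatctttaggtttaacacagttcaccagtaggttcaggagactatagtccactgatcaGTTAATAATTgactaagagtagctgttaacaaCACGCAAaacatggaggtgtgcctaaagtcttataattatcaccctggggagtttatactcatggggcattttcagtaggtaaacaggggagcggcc
Mgst1, chr6:138140277-138140576 on the plus strand: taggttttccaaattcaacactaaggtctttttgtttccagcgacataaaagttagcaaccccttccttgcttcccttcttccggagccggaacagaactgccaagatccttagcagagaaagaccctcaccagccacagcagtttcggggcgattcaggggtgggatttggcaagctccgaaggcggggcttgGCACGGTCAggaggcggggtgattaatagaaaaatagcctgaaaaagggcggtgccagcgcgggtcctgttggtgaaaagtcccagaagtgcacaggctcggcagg
Ugt2b5, chr5:87140291-87140590 on the minus strand: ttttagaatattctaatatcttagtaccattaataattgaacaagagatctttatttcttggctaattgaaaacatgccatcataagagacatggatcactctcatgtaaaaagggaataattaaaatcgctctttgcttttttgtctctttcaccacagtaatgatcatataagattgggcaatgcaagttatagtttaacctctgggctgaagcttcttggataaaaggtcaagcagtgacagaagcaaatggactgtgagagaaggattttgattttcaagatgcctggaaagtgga
Gstp1 held TGAGTCAGC with its first base 74 bases before the start, and Sult1d1 held the HNF1 core 79 and the AhR core 47 bases before it. Mgst1, which has a further annotated promoter, held the antioxidant core 56 bases before the start shown. None of the 4 motifs matched the Ugt2b5 window. A match describes these letters and was not tested as a site.

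Most members were weakly or not expressed in this tissue. No library held a count for 20 of the 76 members, 21 had 3 counts or fewer in every library, and 32 had counts in all 9. Among the 13 Sult2 genes, 10 had no count, including Sult2a1 to Sult2a6, whose enzymes sulfate steroids and bile acids. The 5 members with most counts, Mgst1, Gstm1, Gsta3, Ugt2b5 and Gstp1, held 56.8% of all member counts. Per kilobase of gene length the order of the levels differed between the groups' means. In Control, Gstp1 led at 150 normalised CPM per kb, followed by Mgst1 at 106, Ugt2b5 at 104 and Gstm1 at 98.9. In DSS, Mgst1 led at 111, followed by Gstm1 at 97.3, Ugt2b5 at 88.1 and Gstp1 at 42.9. In Indirubin, Gstm1 led at 79.1, followed by Gstp1 at 42.1, Mgst1 at 40.7 and Sult1a1 at 26.0. These are orders of means, and single libraries of every group departed from them. Gstm1 lay above Mgst1 in Control-1 and DSS-1, Ugt2b5 lay above Gstm1 in DSS-3, and Mgst1 lay above Gstp1 in Indirubin-2 and Indirubin-3. Neighbours in these orders were not tested against each other.

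The filter on low counts kept 36 members in the comparison of DSS with Control, 39 in that of Indirubin with DSS and 37 in that of Indirubin with Control. The 3 comparisons share their groups and are not independent of each other. The summed level of all 76 members was 1770, 1740 and 1310 normalised CPM in Control, 1030, 1080 and 1660 in DSS, and 1160, 605 and 533 in Indirubin. Control and Indirubin did not overlap, whereas DSS overlapped both. As a share of nuclear counts the members took 0.94 to 1.18% in Control, 0.76 to 0.85% in DSS, and 0.91, 0.39 and 0.35% in Indirubin-1, -2 and -3.

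**Figure D1:**
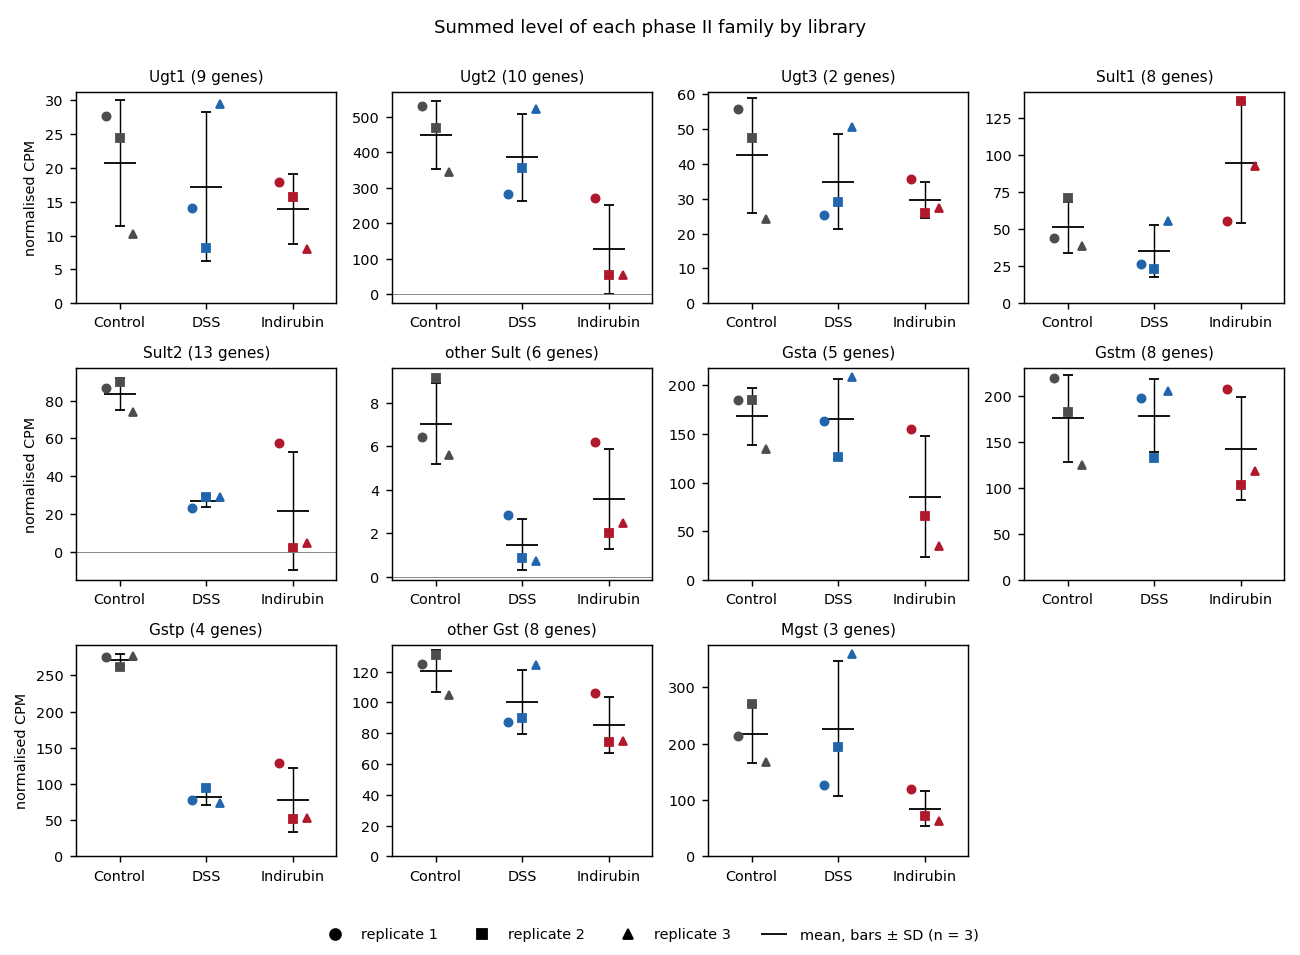
Summed normalised CPM of each family (y axis, linear) in the 9 libraries by group (x axis), with a marker for each replicate and the mean ± SD (n = 3). Gstp and Sult2 lie lower in all DSS than in all Control libraries, and Ugt2 and Mgst lie lower in all Indirubin than in all DSS libraries, with Indirubin-1 above Indirubin-2 and Indirubin-3.

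Between DSS and Control, 2 of the 36 members tested were lower at an adjusted p under 0.05 (quasi-likelihood test of edgeR, Benjamini-Hochberg adjusted), against a background of 0.495% of the 7482 genes tested, and none was higher, against 0.214%. These were the glutathione transferase Gstp1 and the sulfotransferase Sult2a8. At an unadjusted p under 0.05, 6 members were lower (background 4.05%) and none higher (3.48%), and 3 were lower and 3 higher on library size alone. Groups did not overlap for 6 lower members (background 8.62%) and for 1 higher member, Gstt3 (7.07%). The median log2 fold change was -0.21 over the members and 0.01 over all genes tested. DESeq2's Wald test called 3 members lower and none higher, among 88 lower and 55 higher genes of 7482. Over all genes the split was 16 higher and 37 lower, and 14 and 5 on library size alone, a scaling that moved the median of all genes to 0.70 and called no member.

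Gstp1 (ENSMUSG00000060803, chromosome 19, 4085407 to 4087985, minus strand, GRCm39) encodes the pi class transferase, a main GST of male mouse liver. It stood at 234, 222 and 240 normalised CPM in Control and at 69.8, 66.0 and 63.5 in DSS, from 988 to 1260 and 373 to 697 counts. All DSS libraries lay far below all Control libraries, with little spread within either group. Gstp1 fell by 1.76 on the log2 scale (SE 0.29, adjusted p = 0.012, edgeR's quasi-likelihood test). The call was lost with an adjusted p of 0.104 in a fit of all 9 libraries and of 0.326 on library size alone, where the log2 fold change was -1.09, and in each refit without 1 library except that without DSS-1, while the fold change without 1 library stayed between -1.83 and -1.71.

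The pseudogene Gstp-ps (ENSMUSG00000103653, chromosome 1, 191758120 to 191758750) had 39.2, 35.5 and 34.5 normalised CPM in Control and 8.27, 18.8 and 7.20 in DSS. The groups did not overlap, and the log2 fold change of -1.63 (SE 0.41) had an adjusted p of 0.122 by edgeR. It passed the threshold with DESeq2's Wald test (adjusted p = 0.015), with no filter on low counts (0.0185), with a minimum of 10 counts in all libraries (0.0231) and without DSS-2 (0.029, log2 fold change -2.23). Gstp2, a near copy of Gstp1, lay between 0 and 3.19 normalised CPM in these 6 libraries, and Gstp3 between 0 and 7.08. The 4 Gstp genes together gave 275, 261 and 277 normalised CPM in Control and 78.1, 95.0 and 74.2 in DSS. The sum did not overlap either, and no test was run on it. It does not depend on how counted reads were split among these genes. Reads that were dropped as ambiguous or counted more than once would change it, and the counting program is not known.

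Sult2a8 (ENSMUSG00000030378, chromosome 7, 14144611 to 14180694, minus strand), a hepatic sulfotransferase of bile acids, was nearly the sole expressed Sult2 gene. It had 86.8, 89.5 and 73.7 normalised CPM in Control and 21.7, 28.7 and 28.1 in DSS, again without overlap. It fell by 1.63 on the log2 scale (SE 0.29, adjusted p = 0.0222, edgeR's quasi-likelihood test). Leaving out any 1 of the 6 libraries raised the adjusted p above 0.05, up to 0.157, with the fold change between -1.75 and -1.53, and the fit of all 9 libraries gave an adjusted p of 0.708. On library size alone the log2 fold change was -0.96 (adjusted p = 0.40). Sult5a1 was also lower without overlap, at 6.41, 9.14 and 5.59 normalised CPM against 2.84, 0.885 and 0.455 (log2 fold change -2.26, SE 0.79, adjusted p = 0.403 by edgeR). Without DSS-1 its log2 fold change was -3.38, and without DSS-3 it was -1.81.

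**Figure D2:**
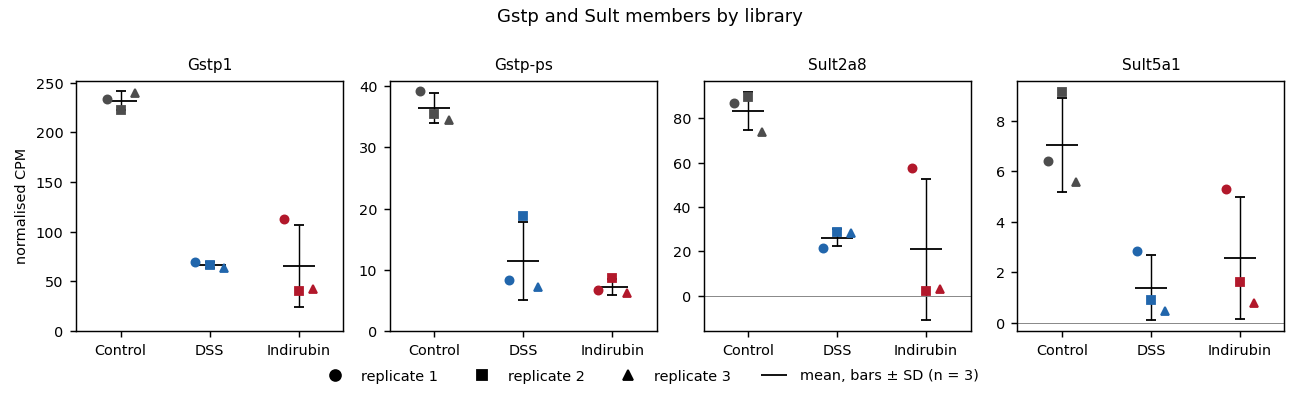
Normalised CPM (y axis, linear) of Gstp1, Gstp-ps, Sult2a8 and Sult5a1 in each library by group (x axis), with a marker for each replicate and the mean ± SD (n = 3). All 4 genes lie lower in every DSS than in every Control library, and in Indirubin the highest library of Gstp1, Sult2a8 and Sult5a1 is Indirubin-1.

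Some genes that mark male mouse liver fell in the same comparison. The summed level of 8 such genes was 577, 642 and 680 normalised CPM in Control and 147, 222 and 204 in DSS, and 2 of the 6 tested, the fatty acid elongase Elovl3 and the major urinary protein Mup20, fell (log2 fold changes -3.37 and -1.52, adjusted p = 0.0103 and 0.0422 by edgeR). These genes made up most of the sum, and 1 of the 6 tested, Eif2s3y, lay above 0 (log2 fold change 0.42). Of 9 female liver markers none passed the filter, and their sum stayed at or under 3.19 normalised CPM in these 6 libraries. Markers of other cells differed in this comparison as well. Marco, a macrophage receptor gene and 1 of 7 Kupffer cell and macrophage markers tested, rose (log2 fold change 2.43, adjusted p = 0.0443 by edgeR). The list as a whole was split, with 4 of the 7 above 0, 3 below it and a median log2 fold change of 0.06. The neutrophil markers summed to 1.17 to 3.16 normalised CPM in Control and 11.5 to 17.4 in DSS, without overlap. S100a8 and S100a9 carried nearly all of this sum, and S100a9 by itself overlapped. Retnlg reached at most 0.709 normalised CPM, and Ly6g, Mpo and Cxcr2 had no counts in these libraries. Of 7 periportal hepatocyte genes tested, 3 were lower at an unadjusted p under 0.05 by edgeR (background 4.05%), and none was called. Cyp2f2 had a log2 fold change of -1.30 (adjusted p = 0.0798 by edgeR), and 1 of the 7, Hsd17b13, lay above 0 (0.23). The part of these genes in the levels of Gstp1 and Sult2a8 was not tested.

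Among the UGTs, Ugt2b1 had 57.5, 65.8 and 59.8 normalised CPM in Control and 23.0, 40 and 38.4 in DSS, without overlap (log2 fold change -0.82, SE 0.31, adjusted p = 0.485 by edgeR). Ugt2a3 did not overlap either, at 30.4 to 39.4 against 14.1 to 29.6 normalised CPM (log2 fold change -0.68, adjusted p = 0.721). The other members of Ugt2 overlapped between these groups, as did all Ugt1, Ugt3, Gsta, Gstm and Mgst genes tested. In Sult1, Sult1d1, which conjugates catecholamines, had 22.3, 40.8 and 14.6 normalised CPM in Control and 5.32, 6.73 and 18 in DSS, where DSS-3 overlapped Control (log2 fold change -1.33, SE 0.49, adjusted p = 0.451 by edgeR). The log2 fold change was -0.88 without Control-2, -2.02 without DSS-3 and -0.55 on library size alone. On the higher side, the theta class gene Gstt3 had 3.11, 3.16 and 5.59 normalised CPM in Control and 7.56, 8.49 and 7.38 in DSS (log2 fold change 1.02, SE 0.54, adjusted p = 0.745).

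Among the remaining GSTs, Gstz1, the maleylacetoacetate isomerase of tyrosine breakdown, had 62.2 to 71.1 normalised CPM in Control, 33.9 to 70.9 in DSS and 37.8 to 43.9 in Indirubin. Control lay above Indirubin without overlap, and DSS overlapped both. Gstt1, a theta class enzyme of small halogenated compounds, had 13.9 to 33.6, 6.73 to 22.1, and 22.3, 5.18 and 7.44. Gstk1, Gsta4, Gstm3 and Mgst3 each overlapped between all 3 groups, at 0.324 to 13.5 normalised CPM over the 9 libraries. Gsta2, Ugt1a9, Ugt1a6b and Ugt3a1 lay between 0 and 8.77, while Sult2a7, Sult2b1, Sult4a1, Sult6b2 and Mgst2 stayed at or under 1.71.

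Between Indirubin and DSS, no member and none of the 9117 genes tested reached an adjusted p under 0.05 in either direction by edgeR (background 0% each way), while DESeq2's Wald test called 53 genes higher and 27 lower, none of them a member. At an unadjusted p under 0.05, edgeR placed 4 of 39 members lower, Ugt2b34, Ugt2b5, Mgst1 and Ugt2b35 (background 3.22%), and 1 higher, Sult1d1 (background 4.45%). Among the 39 members tested, groups did not overlap for 4 lower members, Ugt2b5, Ugt2b34, Mgst1 and Gstm7 (background 6.04%), and for 1 higher member, Gsto1 (background 10.4%). Ugt2b38, lower, and Sult1b1, higher, did not overlap either but had too few counts to be tested. The median log2 fold change was -0.46 over the members and 0.15 over all genes tested. Without Indirubin-1, 6 members were called lower (Sult2a8, Ugt2b1, Ugt2b34, Ugt2b35, Ugt2b36 and Ugt2b5), and 1 higher, Sult1e1, which had counts in Indirubin-2 and Indirubin-3 alone, among 76 lower and 58 higher genes of 10817, whereas Indirubin-1 alone against DSS gave no call and a median of 0.21 over the members.

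The Ugt2 genes lie together on chromosome 5 between 87037626 and 87739453 (GRCm39), a run of 0.702 Mb that holds all 10 of them and, at its end, Sult1b1, Sult1d1 and Sult1e1. The Ugt2 enzymes conjugate steroids, bile acids and drugs. Their summed level was 283, 355 and 522 normalised CPM in DSS and 272, 55.6 and 54.1 in Indirubin. Indirubin-1 lay just below the lowest DSS library, and Indirubin-2 and Indirubin-3 lay far below it.

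Ugt2b5 (ENSMUSG00000054630, 87272819 to 87288177, minus strand), the most abundant of them, had 114, 138 and 239 normalised CPM in DSS and 92.0, 16.1 and 17.9 in Indirubin. The groups did not overlap, but the values within Indirubin spanned a wider range than the gap between the groups. Its log2 fold change was -1.96 (SE 0.65, adjusted p = 0.483 by edgeR), -3.36 without Indirubin-1 (adjusted p = 0.00312) and -0.83 for Indirubin-1 alone (adjusted p = 1.0). Ugt2b34 followed the same order, with 58.6, 73.6 and 80.2 normalised CPM in DSS and 39.5, 9.14 and 8.55 in Indirubin. Its log2 fold change was -1.90 (SE 0.57, adjusted p = 0.436 by edgeR), and -3.09 without Indirubin-1 (adjusted p = 0.00188).

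The remaining Ugt2 genes tested overlapped between DSS and Indirubin through Indirubin-1. Ugt2b36 had 54.0, 50.1 and 102 normalised CPM in DSS and 60.0, 15.3 and 10.8 in Indirubin. Ugt2b1 had 23.0, 40 and 38.4 in DSS and 40, 2.91 and 5.13 in Indirubin, and Ugt2a3 had 14.1, 18.8 and 29.6 in DSS and 21.4, 5.90 and 3.33 in Indirubin. All 6 had log2 fold changes below 0, from -1.96 for Ugt2b5 to -1.04 for Ugt2a3, with a family median of -1.32. Without Indirubin-1 the log2 fold changes of Ugt2b36, Ugt2b1 and Ugt2a3 were -2.48, -3.16 and -2.26. For Indirubin-1 alone the log2 fold changes of Ugt2b1 and Ugt2a3 were 0.25 and 0.04.

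**Figure D3:**
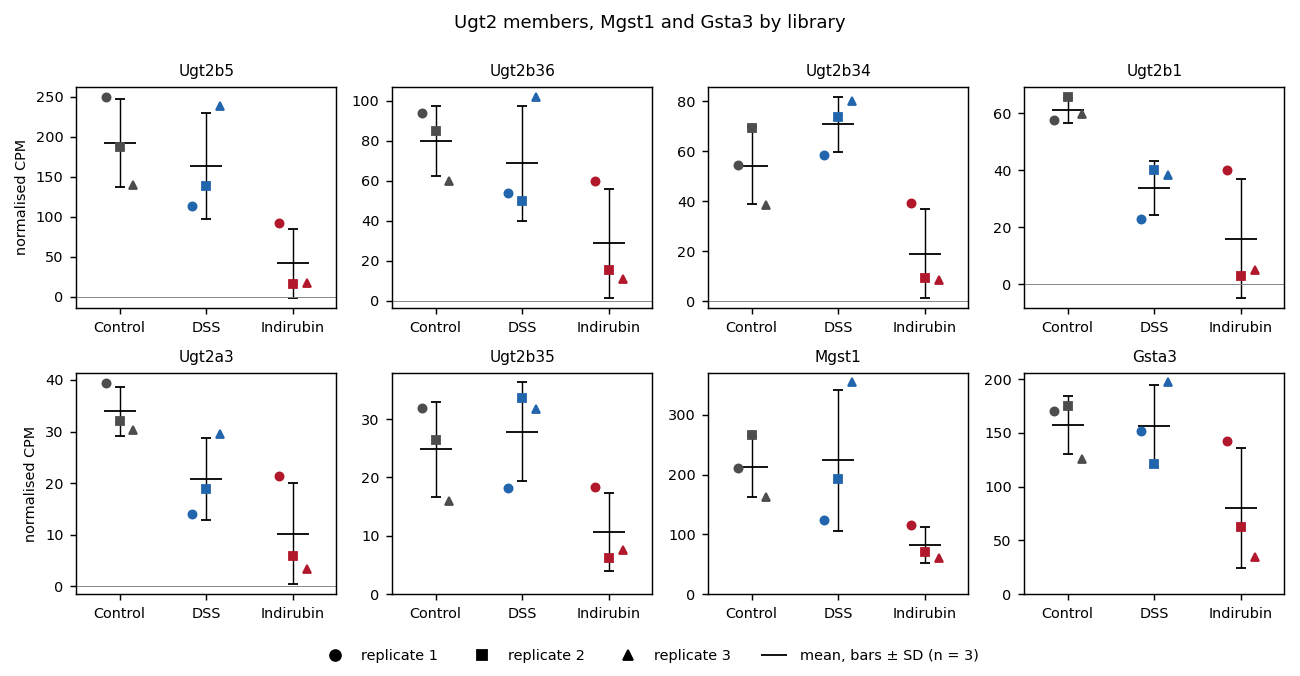
Normalised CPM (y axes, linear, each panel with its own range) of the 6 Ugt2 genes tested in every comparison, of Mgst1 and of Gsta3 in each library by group (x axis), with a marker for each replicate and the mean ± SD (n = 3). Indirubin-2 and Indirubin-3 are the lowest libraries of all 8 genes, and Indirubin-1 lies near or among the DSS libraries.

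Mgst1 (ENSMUSG00000008540, chromosome 6, 138117314 to 138133753), the membrane-bound glutathione transferase of hepatocytes, had 125, 193 and 355 normalised CPM in DSS and 116, 70.4 and 60.0 in Indirubin. All Indirubin libraries lay below all DSS libraries, Indirubin-1 by a small margin. The log2 fold change was -1.44 (SE 0.49, adjusted p = 0.492 by edgeR), -1.87 without Indirubin-1 and -0.95 without DSS-3. Gsta3, an alpha class enzyme that detoxifies aflatoxin epoxide in mice, had 121 to 197 normalised CPM in DSS and 142, 62.9 and 34.5 in Indirubin (log2 fold change -0.97, adjusted p = 0.742, and -1.77 without Indirubin-1). Gstm1, the leading mu class gene, overlapped, at 115 to 161 in DSS and 166, 86.3 and 96.8 in Indirubin. Gstm7 did not overlap, at 5.20, 7.61 and 9.02 in DSS and 2.38, 2.35 and 4.61 in Indirubin (log2 fold change -1.20, SE 0.57, adjusted p = 0.673, and -1.15 without Indirubin-1).

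Gstp1 and Sult2a8, the members called between DSS and Control, showed no shift of one direction here. Gstp1 had 113, 40.2 and 42.6 normalised CPM in Indirubin, on both sides of the DSS range of 63.5 to 69.8 (log2 fold change -0.02, SE 0.46, adjusted p = 0.995 by edgeR, and 0.77 for Indirubin-1 alone). Sult2a8 had 57.4, 2.10 and 3.08 normalised CPM, again with Indirubin-1 above and the others below the DSS range of 21.7 to 28.7. Its log2 fold change was -0.34 (SE 0.92, adjusted p = 0.982), -3.42 without Indirubin-1 (adjusted p = 0.00312) and 1.14 for Indirubin-1 alone.

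Sult1 genes lie on chromosomes 5, 7 and 17. The summed level of all 8 was 26.9, 23.4 and 55.8 normalised CPM in DSS and 55.6, 137 and 92.7 in Indirubin, so that Indirubin-1 lay within the DSS range. Sult1d1 had 5.32, 6.73 and 18 normalised CPM in DSS and 14.6, 55.9 and 44.8 in Indirubin. Indirubin-2 and Indirubin-3 were above every other library, and Indirubin-1 lay within the DSS range (log2 fold change 1.94, SE 0.59, adjusted p = 0.436 by edgeR, and 0.54 for Indirubin-1 alone). Sult1a1, the phenol sulfotransferase, had 16.3, 15.9 and 35.3 in DSS and 28.9, 59.8 and 28.8 in Indirubin (log2 fold change 0.81, SE 0.47, adjusted p = 0.778, and 0.36 without Indirubin-2).

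Sult1e1, the oestrogen sulfotransferase, had 162 and 169 counts in Indirubin-2 and Indirubin-3 and 0 in the other 7 libraries. At these depths a library with 0 counts allows up to 3. The filter removed it from the main tests because fewer than 3 libraries held counts. Its counts are given as a description. Its 50-base words occurred in no other gene. Sult1c2 overlapped between DSS, at 4.37, 0.708 and 2.00 normalised CPM, and Indirubin, at 11, 3.40 and 1.71, and here Indirubin-1 was the highest library.

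**Figure D4:**
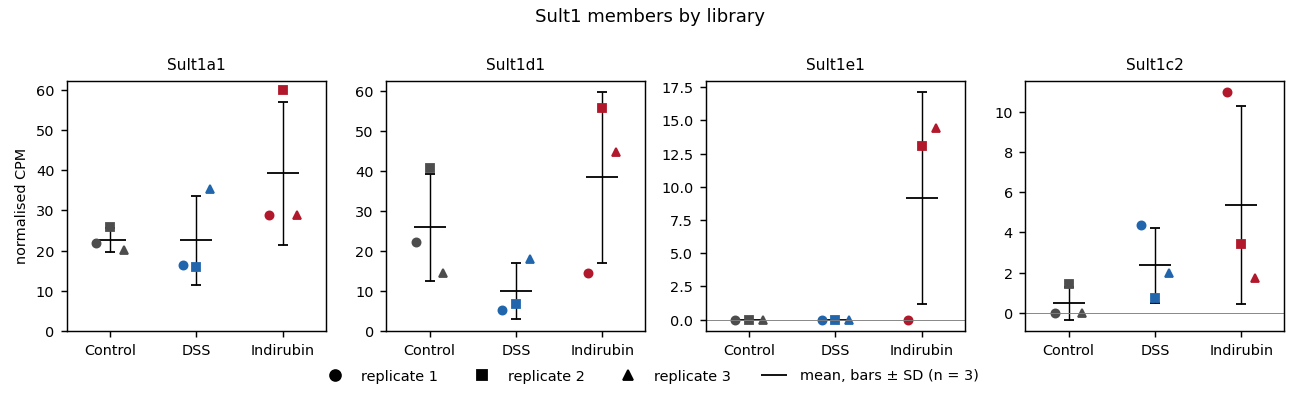
Normalised CPM (y axes, linear, each panel with its own range) of Sult1a1, Sult1d1, Sult1e1 and Sult1c2 in each library by group (x axis), with a marker for each replicate and the mean ± SD (n = 3). Sult1e1 is above 0 in Indirubin-2 and Indirubin-3 alone, Sult1d1 is highest in these libraries, and Sult1c2 is highest in Indirubin-1.

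Gsto1, an omega class enzyme that reduces dehydroascorbate, was higher without overlap, at 10.2, 5.49 and 7.56 normalised CPM in DSS and 11.7, 15.4 and 16.6 in Indirubin (log2 fold change 0.92, SE 0.43, adjusted p = 0.66 by edgeR). Members with larger fold changes but few counts overlapped, among them Gstp2, with 0 to 3.19 normalised CPM in DSS and 1.29 to 7.86 in Indirubin (log2 fold change 1.54, SE 1.18, and 0.65 without Indirubin-1 to 2.58 without DSS-2). Ugt1a1, the UGT of bilirubin, had 7.80, 5.13 and 15.5 normalised CPM in DSS and 6.22, 5.66 and 3.67 in Indirubin, with overlap. Ugt3a2, which uses UDP-xylose and UDP-glucose, had 23.9 to 48.4 in DSS and 24.9 to 31.6 in Indirubin, also with overlap.

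Several marker groups separated Indirubin-2 and Indirubin-3 from the other libraries along with these members. Besides the acinar genes, the 6 neutrophil markers summed to 23.6, 233 and 82.5 normalised CPM in Indirubin-1, -2 and -3 against 11.5 to 17.4 in DSS. Most of this sum was S100a8 and S100a9. The 7 hepatocyte markers summed to 9590, 6160 and 7250 in Indirubin and 8510 to 16000 in DSS, while the hepatocyte factor gene Hnf4a had 62.9 to 78.7 and 67.1 to 75.7. Within the hepatocyte list, Tat, the tyrosine aminotransferase gene, was higher in Indirubin-2 and Indirubin-3, at 272 and 263, than in the other 7 libraries, at 55.2 to 174. The 5 erythroid markers summed to 658 and 638 in Indirubin-2 and Indirubin-3 and to 110 to 267 in the other 7 libraries. Male liver markers summed to 195, 26.3 and 26.0 in Indirubin, and female liver markers to 0, 77.2 and 39.5 against at most 3.19 in the other groups. The mitochondrial share was 89.49, 71.58 and 77.18% in Indirubin-1, -2 and -3 and 85.82, 87.68 and 72.43% in DSS-1, -2 and -3. The part of these differences in the members' levels was not tested.

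Between Indirubin and Control, 1 of the 37 members tested was lower at an adjusted p under 0.05, against a background of 0.174% of 8059 genes, and none was higher, against 0.0620%. At an unadjusted p under 0.05, 11 members were lower (background 6.38%) and 2 higher, Gstm2 and Sult1c2 (background 7.45%), of which Sult1c2 passed the filter through its Indirubin counts alone. On library size alone 4 members were lower and 6 higher at this threshold. Among the 37 members tested, groups did not overlap for 11 lower members (background 9.50%) and for 4 higher members, Gstm2, Sult1c2, Sult1a1 and Gsto1 (background 12.0%). The median log2 fold change was -0.53 over the members and 0.13 over all genes tested. DESeq2's Wald test called 4 members lower and none higher, among 170 lower and 146 higher genes of 8059. Without Indirubin-1 edgeR called 12 members lower and 1 higher, among 320 lower and 145 higher genes of 9721. Sult1e1, with no counts in Control and 162 and 169 in Indirubin-2 and Indirubin-3, passes the filter of that refit through those libraries alone. Over all genes the split was 5 higher and 14 lower, and 249 and 17 on library size alone, which moved the median of all genes to 1.10 and called no member.

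The member called was the pseudogene Gstp-ps, at 6.76, 8.66 and 6.24 normalised CPM in Indirubin against 34.5 to 39.2 in Control. All Indirubin libraries, Indirubin-1 included, lay below all Control libraries. It fell by 2.29 on the log2 scale (SE 0.36, adjusted p = 0.0288, edgeR's quasi-likelihood test). For Indirubin-1 alone the log2 fold change was -2.44 (adjusted p = 0.0582). The adjusted p rose to between 0.129 and 0.328 in each refit without 1 library other than Indirubin-1. Gstp1 was lower without overlap as well, at 113, 40.2 and 42.6 against 222 to 240 normalised CPM (log2 fold change -1.81, SE 0.46, adjusted p = 0.113 by edgeR, and -2.59 without Indirubin-1, adjusted p = 0.0004).

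All 6 Ugt2 genes tested were lower at an unadjusted p under 0.05 (background 6.38%), with log2 fold changes from -2.18 for Ugt2b5 (SE 0.63, adjusted p = 0.151 by edgeR) to -1.21 for Ugt2b35, and 4 of them did not overlap (background 9.50%). Without Indirubin-1, when 320 of 9721 genes were called lower, all 6 passed the adjusted threshold, with log2 fold changes from -4.02 for Ugt2b1 (adjusted p = 0.000141) to -1.96 for Ugt2b35 (adjusted p = 0.0179) and -3.60 for Ugt2b5. For Indirubin-1 alone they lay between -1.07 for Ugt2b5 and -0.42 for Ugt2b36, with no call. Sult2a8 was lower without overlap, with 57.4 in the highest Indirubin library and 73.7 in the lowest Control library (log2 fold change -2.01, SE 0.93, adjusted p = 0.369). Its log2 fold change was -5.10 without Indirubin-1 (adjusted p = 2.5e-05) and -0.55 for Indirubin-1 alone. Mgst1 did not overlap (log2 fold change -1.35, SE 0.40, adjusted p = 0.161), and passed the threshold without Indirubin-1 (-1.81, adjusted p = 0.00604). Ugt1a1 did not overlap either (log2 fold change -1.22, SE 0.51, adjusted p = 0.309, and -0.63 without Control-1).

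On the higher side Gstm2, a mu class gene, had 2.33, 3.52 and 0 normalised CPM in Control and 10.2, 8.25 and 7.35 in Indirubin (log2 fold change 2.14, SE 0.79, adjusted p = 0.254 by edgeR, and between 1.56 and 2.81 without 1 library). Its DSS values of 4.02, 0.708 and 13.2 spanned both. Sult1c2 had 0, 8 and 0 counts in Control and 60, 42 and 20 in Indirubin, and its fitted log2 fold change ran from 2.28 without Indirubin-1 to 8.35 without Control-2, so that no size is given.

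**Figure D5:**
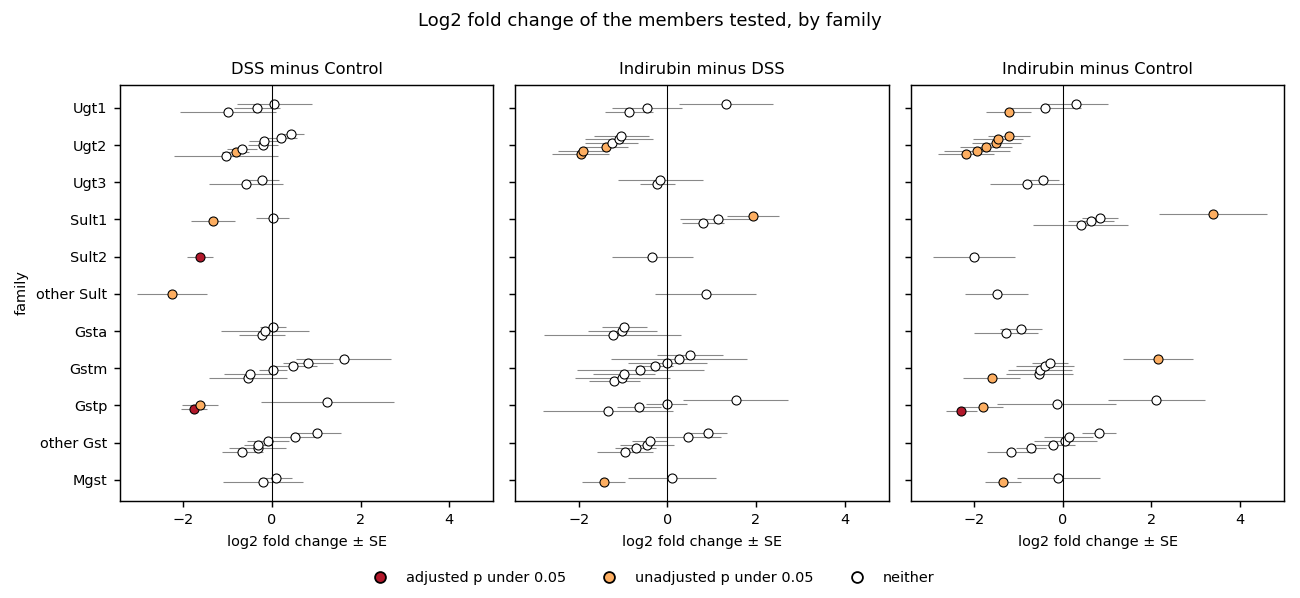
Log2 fold change ± SE (x axis) of each member tested, by family (y axis), in the 3 comparisons, with filled points for an adjusted p under 0.05 (red) or an unadjusted p under 0.05 (orange). Red points are Gstp1 and Sult2a8 between DSS and Control and Gstp-ps between Indirubin and Control, and no Ugt2 gene lies above 0 in the comparisons with Indirubin.

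Genes listed for the supply of donors to these enzymes had no call at an adjusted p under 0.05 in any comparison. Of 6 genes listed for the supply and release of glucuronic acid, all were tested. Slc35b1 alone had an unadjusted p under 0.05 by edgeR, higher in DSS than in Control (background 3.48%). A role of Slc35b1 and Galm in glucuronic acid supply is not established here. Of 9 genes of sulfate donor supply and removal, the sulfate transporter Slc26a1 had 10.2, 4.6 and 12.9 normalised CPM in DSS and 5.12, 2.10 and 1.45 in Indirubin (log2 fold change -1.71, adjusted p = 0.529 by edgeR). Of 12 genes tested for glutathione supply and mercapturate formation, the glutathione reductase gene Gsr had 8.51, 3.72 and 7.83 in DSS and 15, 15 and 21.7 in Indirubin, higher without overlap in all 3 libraries (log2 fold change 1.37, adjusted p = 0.478). Cbs went the other way without overlap, at 38.4, 31.9 and 50.4 in DSS and 20.1, 23.7 and 13.6 in Indirubin (log2 fold change -1.06, adjusted p = 0.529 by edgeR). These were the 1 higher (background 4.45%) and 1 lower gene (3.22%) of the 12 at an unadjusted p under 0.05 by edgeR. Gclc, which limits glutathione synthesis, had 28.2, 10.4 and 18.1 in DSS and 19.2, 5.26 and 4.44 in Indirubin.

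A list of other detoxifying enzymes held methyl-, acetyl- and acyltransferases together with the epoxide hydrolases Ephx1 and Ephx2, which add water and do not conjugate. Of 15 tested, 12 lay below 0 in DSS minus Control (3698 of all 7482 genes), 13 in Indirubin minus DSS (3938 of 9117) and 11 in Indirubin minus Control (3587 of 8059), with medians of -0.42, -0.43 and -1.0 on the log2 scale and no call at an adjusted p under 0.05 by edgeR. At an unadjusted p under 0.05 these comparisons placed 2, 1 and 7 of them lower (backgrounds 4.05%, 3.22% and 6.38%), Ephx2 among them in DSS minus Control and both hydrolases in Indirubin minus Control, and 1 higher, Nnmt, in DSS minus Control (3.48%). Ephx2, the soluble epoxide hydrolase gene, had 46.9 to 79.2 normalised CPM in Control, 28.5 to 32.1 in DSS and 33.5, 12.5 and 12.1 in Indirubin.

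Among genes outside the members that report on receptors of these enzymes, the AhR target Cyp1a2 had 9.45, 20.9 and 35.2 normalised CPM in DSS and 86.1, 50.7 and 65.2 in Indirubin, without overlap and with Indirubin-1 the highest (log2 fold change 1.63, adjusted p = 0.436 by edgeR). Cyp1a1 was at 0 in all libraries but Indirubin-2 and Indirubin-3, at 21.2 and 35.6. Of 17 NRF2 targets tested between Indirubin and DSS, 11 lay above 0, against 5179 of all 9117 genes, and 3 had an unadjusted p under 0.05, all higher (background 4.45%), led by Hmox1 at 6.90 to 9.20 in DSS and 13.2, 33.5 and 34.0 in Indirubin. Between Indirubin and Control, 4 of 17 were higher (background 7.45%) and 4 lower (6.38%), the latter Gclc, Ephx1, Osgin1 and Ces1g. Of 6 CAR and PXR targets tested 4 lay below 0, against 3938 of all 9117 genes, led by the carboxylesterase Ces2a at 73.3 to 130 in DSS and 52.8, 6.31 and 6.15 in Indirubin (log2 fold change -2.18, adjusted p = 0.496). Por, the reductase that serves cytochromes P450, went the other way, with log2 fold changes of 1.16 against DSS (adjusted p = 0.723) and 1.73 against Control (adjusted p = 0.301), where 1 of the 6 targets was higher and 2 were lower at an unadjusted p under 0.05. The receptor and regulator genes themselves had no call at an adjusted p under 0.05 among 14 to 18 tested, and the 1 with an unadjusted p under 0.05, Maff, passed the filter through its Indirubin counts alone (0 in all DSS libraries and 11, 34 and 21 in Indirubin).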

How the data were processed

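Liver RNA was extracted and sequenced by the authors on a DNBSEQ instrument, and the submitters' processing notes name the build GRCm39. The aligner, the counting program, its strand setting and the annotation are not given in the sources used here. The authors deposited whole-number counts per gene and FPKM values for 9 libraries. FPKM was used here only to check the counts, since each library's count divided by length and FPKM gave a single constant. Log2 fold changes and p-values deposited by the authors in the same table, and 3 deposited gene lists, were not used.

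In R 4.3.3, edgeR 4.0.16 was fitted to the 6 libraries of each comparison (TMM, glmQLFit and glmQLFTest after filterByExpr, min.count 10, min.total.count 15) with Benjamini-Hochberg adjustment over all genes tested. A SE is the fold change divided by the square root of F. Printed levels are counts divided by a TMM-scaled library size computed once across the 9 libraries (CPM), and levels per kb divide them by the table's gene length. No set test was run. Scripts were tested on simulated data. DESeq2 1.42.0 and other alternatives are given in the closing section. Named members were, in each comparison, those called and the 5 with the smallest p each way, and in each family the 3 with the highest level per kb. Other members named for their values were chosen after these were seen. Members, lists and tests were chosen with earlier results of these data known.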

Additional observations from a re-analysis of the deposited data

How the results depend on the processing

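Nuclear depth of 569044 to 2132208 counts and 3 libraries a group were the depth behind every call, and counts shared between near-identical genes limit the Gstp, Ugt1 and Ugt2b5 values. Of 49 fold changes of named members, 43 kept their direction under every alternative run, and 645 of 713 alternative values kept direction and side of the threshold, 32 passed it in addition and 24 lost it. The cause of no such change was tested.

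For DSS minus Control, the 2 members called lower became 0 on library size alone, 0 with all 9 libraries in one fit, 0 with the replicate number as a block, and 0 to 1 without 1 library. None was called higher under any alternative. For Indirubin minus DSS, where none was called, no filter on low counts gave 1 higher and 2 lower (Sult1e1, with counts in Indirubin-2 and Indirubin-3 alone, and Ugt2b34 and Ugt2b5), and leaving out 1 library gave 0 to 1 higher and 0 to 6 lower. For Indirubin minus Control, the 1 member called lower became 0 on library size alone, 4 with DESeq2's Wald test, 6 with no filter on low counts, 2 with the replicate block (Gstp-ps and Ugt2b5), 0 to 12 without 1 library, and 0 with Indirubin-1 alone, an alternative chosen after seeing the data. None was called higher there, against 2 with no filter (Sult1c2 and Sult1e1) and 0 to 1 without 1 library. DESeq2's size factors, nuclear genes alone and a minimum of 10 in all libraries left these counts within 1.5 times. Libraries with the same number did not deviate together from their group means (correlations of -0.0248 to 0.0243), so the numbers were not taken as pairs.

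Library size alone moved the median log2 fold change of all genes from 0.01 to 0.70 for DSS minus Control, from 0.15 to 0.43 for Indirubin minus DSS and from 0.13 to 1.10 for Indirubin minus Control, and that of the members from -0.21 to 0.52, from -0.46 to -0.32 and from -0.53 to 0.20. Genes at an unadjusted p under 0.05 went from 260 higher and 303 lower to 845 and 71, from 406 and 294 to 407 and 103, and from 600 and 514 to 2115 and 107. Past the adjusted threshold of 0.05 they went from 16 and 37 to 14 and 5, from 0 and 0 to 2 and 0, and from 5 and 14 to 249 and 17.

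Fold changes that turned were those of Ugt2a3 in DSS minus Control (0.07 on library size alone) and, in Indirubin minus DSS, of Gstp1 (0.05 on library size alone, 0.06 with a minimum of 10 in all libraries, 0.23 and 0.21 without Indirubin-2 and without Indirubin-3 in a range of -0.77 to 0.23 without 1 library, 0.77 for Indirubin-1 alone), Sult2a8 (0.20 and 0.18 without Indirubin-2 and without Indirubin-3 in a range of -3.42 to 0.20, 1.14 for Indirubin-1 alone), Ugt2b1 (0.25) and Ugt2a3 (0.04) for Indirubin-1 alone. Sult1d1 in Indirubin minus Control went from 0.63 to -0.83 for Indirubin-1 alone. A single Indirubin library was assumed to vary like the other group.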
